A study of Mus musculus with 18 samples.

Results

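This comparison set 3 arrays of G1E-ER4 cells at 21 h of estradiol against 3 arrays of the same cells before estradiol (0 h), 6 of the 18 arrays in the series. The arrays were chosen by their labelled time, and all 12422 probe sets that are not Affymetrix controls were read. G1E cells are a mouse erythroid line, made from embryonic stem cells in which the Gata-1 gene had been disrupted. Every group used here, the untreated cells included, lacks working endogenous Gata-1 and belongs to the ER4 subclone, which carries Gata-1-ER, a fusion of Gata-1 with the part of the estrogen receptor that binds estradiol. The 0 h cells received no estradiol, and the other groups were taken 3, 7, 14, 21 or 30 h after estradiol was added to the medium, with 3 biological replicates (A, B and C) at each time. The arrays at 14 h and 30 h serve as the neighbouring times, and those at 3 h and 7 h enter the fit and the course of the cell cycle genes. ER4 is 1 subclone, so all replicates share its genotype. Arrays of estradiol-treated cells without the fusion, or of untreated cells kept for 21 h, were not analysed here, so active Gata-1-ER, the hormone itself and time in culture cannot be told apart.

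Gata-1 is a zinc finger transcription factor that red cell precursors need for maturation. It is known to switch on genes for hemoglobin, heme and the red cell membrane, to silence progenitor genes such as Gata2, Kit and Myb, and to bring proliferation to an end. Maturing erythroblasts divide a few more times while they shrink, then leave the cell cycle, condense their nucleus and clear their organelles. The comparison addresses which transcripts differed late in this course.

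Each array was an MG-U74Av2 chip, on which each transcript is read by a set of short DNA probes, the probe set. Signals below are the deposited linear intensities of single arrays in the order A, B and C, and means are over 3 arrays. Log2 changes are those of limma on log2(signal + 16) after quantile normalization, so changes of dim genes are understated. They are given with their standard error (SE) and with p-values adjusted over all 12422 probe sets, and a probe set was called at an adjusted p below 0.05. Of the probe sets tested, 2808 are of an uncertain kind, which by design may read related transcripts. Among the genes named below these are Alas2, Cpox, Fech, Hbb-y, Ank1, Cd44, Rhag, Stom, Tfrc, Prdx2, Myb, Lyl1, Mtm1, Junb, Polr1b, Rpl38, Dck, Srm, Ranbp1, Xpo7, Mcm3, Tfdp1, Cdc25c, Nusap1, Kif20a, Lmna, Psma3, Sucla2, Sdhb, Ptpn6, Mcpt1, Cpa3, Pold2 and Snrp1c-ps2. A level here is relative to the other RNA on the array, and in a bulk sample fewer cells of a type and less RNA per cell cannot be told apart.

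The comparison of 21 h with 0 h called 2571 of the 12422 probe sets (20.7%). Of these 1211 were higher (9.75%) and 1360 lower (10.9%). The median log2 change of all probe sets was 0.03. Of the calls, 580 were at least 2-fold higher and 759 at least 2-fold lower on the scale of signal + 16. Rises of 4 or more on the log2 scale were seen for 12 probe sets, and falls of 4 or more for 5. With 1 probe set for each of 8251 genes, 2028 genes (24.6%) were called, 944 higher (11.4%) and 1084 lower (13.1%). These last 2 shares are the background for every count of list members at 21 h against 0 h. Normalized values of the 2 times did not overlap in 2513 of the 2571 calls, and in 4178 (33.6%) of all probe sets.

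The trimmed mean of the deposited values was 150.1 on each array, a sign of scaling to a common value. Total signal therefore cannot be compared between the arrays. At 21 h array A correlated with B and C at 0.955 to 0.958, against 0.969 between B and C, and the 0 h arrays correlated at 0.969 to 0.971. The ratio of 3' to 5' actin signal, a measure of RNA integrity, was 1.19 to 2.04 at 0 h and 0.968 to 1.39 at 21 h. Its part in the results was not tested. Without array 21 h A, 2245 probe sets were called. Several lists below had their lowest 21 h signals mostly in array A. In others array A was mostly the highest, as in 23 of 30 cytosolic ribosomal protein genes and 22 of 32 interferon and class I genes. So it was in 19 of 26 immediate early genes and 18 of 22 glycolysis genes. The share over all probe sets was not counted, so whether these orders are particular to the lists was not tested.

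**Figure D1:**
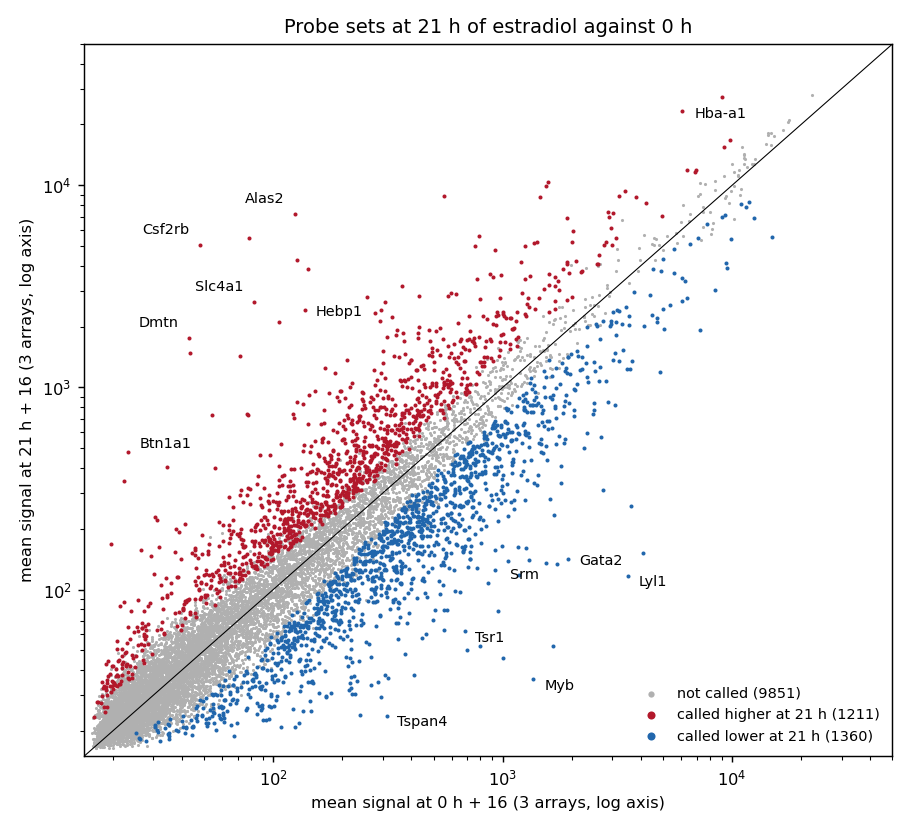
Mean signal of each probe set at 21 h (vertical axis) against 0 h (horizontal axis), both plus 16 and on log axes, means of 3 arrays each. The 1211 probe sets called higher are red, the 1360 called lower are blue, and the 9851 not called are grey; the line marks equal signal.

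The largest rises included receptor, heme and membrane genes. Csf2rb, the shared beta chain of the receptors for interleukin 3, interleukin 5 and GM-CSF, had signals of 55.2, 18 and 23.1 at 0 h and 5287, 3592 and 6286 at 21 h. Its log2 change, 6.64 (SE 0.32, adjusted p = 2.83e-11), was the largest of all genes called, and the near-identical Csf2rb2 followed with 6.03 (SE 0.32, adjusted p = 8.77e-11). Sequence shared by the 2 genes leaves it uncertain which one the probes read. Another Csf2rb2 probe set, of an uncertain kind, was near background at both times (6.6 and 1.9) and was not called. The alpha chains Csf2ra (0.04) and Il3ra (0.30), which pair with the beta chain, were not called.

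Alas2, the enzyme that starts heme synthesis in red cells, rose from 124, 107 and 93.9 to 7116, 7005 and 7429.9 (log2 change 5.82, SE 0.22, adjusted p = 1.18e-12). Its 21 h arrays lay close together and far above those at 0 h. Hebp1, a heme-binding protein, rose from 143, 107 and 115 to 2818, 2106 and 2234 (log2 change 4.06, SE 0.15, adjusted p = 6.38e-13). Tmem14c, which carries a heme precursor across the inner mitochondrial membrane, had 1669, 1512 and 1479.7 at 0 h and 10309, 9774 and 10977 at 21 h (2.61). Urod, an enzyme in the middle of the pathway, rose from 636, 596 and 599 to 2639, 3062 and 2937 (2.13), with no overlap. Of 14 measured genes of heme synthesis, transport and breakdown, 9 were called higher and 0 lower, with a median log2 change of 1.77, against 0.02 over all genes. Alad (1.76), Uros (1.78), Ppox (2.25), Abcb10 (2.46) and Alas1 (1.25), the form of other tissues, were the other called members. Not every late step moved. Cpox (−0.19) and Fech (0.46) were not called, and neither were the heme oxygenases Hmox1 (−0.04) and Hmox2 (−0.48), which break heme down.

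The stretches before the start sites of Alas2 and Urod are shown because both genes rose and each holds a motif that was searched for. They are the 250 bases before the start in RefSeq (GRCm38.p6), Alas2 at chrX:150547167-150547416 on the plus strand and Urod at chr4:116994414-116994663 on the minus strand. Capitals mark a GATA motif (AGATAA or TGATAA on either strand) in Alas2, 86 bases before the start, and an E-box (CACGTG) in Urod, 49 bases before it.
Alas2: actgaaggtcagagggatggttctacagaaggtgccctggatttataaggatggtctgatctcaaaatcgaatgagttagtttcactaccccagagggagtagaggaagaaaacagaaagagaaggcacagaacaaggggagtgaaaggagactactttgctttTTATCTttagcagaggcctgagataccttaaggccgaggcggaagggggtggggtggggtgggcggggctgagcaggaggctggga
Urod: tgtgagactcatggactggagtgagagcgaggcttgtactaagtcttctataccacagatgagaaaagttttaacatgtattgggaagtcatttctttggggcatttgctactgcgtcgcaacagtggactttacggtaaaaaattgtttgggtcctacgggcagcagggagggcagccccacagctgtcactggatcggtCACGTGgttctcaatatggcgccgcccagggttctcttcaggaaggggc
Over 300-base windows, 250 before to 50 after the start, the GATA motif stood in 3 of 12 heme genes with a window (25%) and in 921 of 6572 tested genes (14%). Among genes called higher it stood in 110 of 785 (14%), and among genes called lower in 87 of 886 (9.82%). Of all 32851 listed windows, 18.6% held it, and 7.15% held the E-box. The E-box stood in 16.6% of genes called higher, 14.7% of those called lower and 11.5% of all tested genes. A match of letters is a description and not a binding site.

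Globins rose less in log2 terms from a high start. Hba-a1, the adult alpha globin, went from 7034, 5307 and 5842 to 24517, 20105 and 25105 (log2 change 1.73, SE 0.16, adjusted p = 1.53e-07). Hbb-b2, an adult beta globin, rose from 1747, 1399 and 1159.6 to 8358, 9393 and 8538 (2.54). The embryonic globins were dimmer. Hba-x rose from a mean of 29.9 to 112 (1.44) and Hbb-bh1 from 76.5 to 212 (1.52, adjusted p = 0.0166), whereas Hbb-y (0.67) was not called and stood at 351 at 30 h. In all 4 of 5 globins were higher, with a median of 1.52. The call of Hbb-bh1 did not hold when array 21 h A (1.40, adjusted p = 0.0637) or array 0 h B (1.12, adjusted p = 0.107) was left out. Globin genes are alike enough for 1 probe set to read several.

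Among genes of the red cell membrane and its skeleton, 8 of 17 were higher and 1 lower (median 0.50). Slc4a1, the band 3 anion exchanger, rose from 102, 55.8 and 42.8 to 1348, 3586 and 2985 (log2 change 4.90, SE 0.37, adjusted p = 1.05e-08). Array 21 h A was the lowest of the 3 and still above every array at 0 h. Dmtn, the actin-bundling dematin, had 26.6, 30.3 and 24 at 0 h and 1219.5, 2029 and 1997 at 21 h (5.26), and Ache, the acetylcholinesterase of the red cell surface, 20.7, 9.8 and 51.8 and 1577, 1154 and 1647 (5.12). Tspan33 (2.28), Mpp1, the p55 protein (1.81), Add1, adducin alpha (1.81), Ank1, the ankyrin that anchors band 3 (1.68), and Rhd, a blood group protein (1.13), were the other risers. Cd44, an adhesion receptor that red cell precursors lose as they mature, was lower (−1.15), and without array 0 h A or 21 h A 0 membrane genes were called lower. Rhag (−0.18), Epb42 (0.50), Cd47 (0.02) and Stom (0.18) were not called.

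Iron genes did not move as 1 group, with 2 of 11 higher, 1 lower and a median of 0.01. Ncoa4, which delivers ferritin to lysosomes so that its iron is freed, rose from 295, 263 and 297 to 1467, 1609.7 and 1398 (log2 change 2.28, SE 0.12, adjusted p = 1.29e-10). Tfrc, the transferrin receptor, rose from 1239.8 to 3412 (1.28), while Tfr2, its relative, fell from 462 to 132 (−1.61). The ferritin heavy chain Fth1 was not called (0.30, adjusted p = 0.123). Of the carbonic anhydrases, Car1 fell from 3629, 3499.7 and 3682 to 204, 190.1 and 336 (−3.91) and Car2 rose (0.70). Among antioxidant enzymes, Txnrd2, the mitochondrial thioredoxin reductase, rose (2.25) and so did Prdx2, the abundant peroxiredoxin of red cells (1.30), while the cytosolic Txnrd1 (−0.99), Txn1 (−1.25) and Gsr (−1.77) fell. These counts were 7 higher and 6 lower of 24, and 4 higher without array 0 h C.

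Several large rises belong to no list. Ptdss2, a phosphatidylserine synthase, rose from 105, 81.5 and 84.5 to 2084, 2254 and 1939 (log2 change 4.28, SE 0.12, adjusted p = 1.94e-14), the smallest p of the comparison. Rogdi, a leucine zipper gene, rose from 110.1, 141 and 126 to 3761, 3873 and 3907 (4.65), and Wdr92, a WD repeat gene, from 537 to 8874 (3.95). Btn1a1, a butyrophilin best known from milk fat, went from 8.8, 7.2 and 6.1 to 496, 450.0 and 444 (4.37). St3gal2, a sialyltransferase (3.58), Atp1b2, a sodium pump subunit (3.28), and Dnajb2, a co-chaperone (3.24), were also among the 15 largest rises. Another probe set for Atp1b2 was near background at both times (19.7 and 12.4).

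Regulators of blood progenitors were among the large falls. Myb, which keeps blood progenitors dividing, fell from 1168, 1334 and 1537 to 39.7, 0.9 and 19.5 (log2 change −5.49, SE 0.29, adjusted p = 8.77e-11), and at 21 h its arrays were spread near background. Gata2, which serves earlier blood cells as Gata1 serves red cells, fell from 2092, 1939.7 and 1696 to 179, 83.6 and 113 (−3.84). Kit, the receptor for stem cell factor, fell from 377, 486 and 478 to 80.5, 33.9 and 17.8 (−3.02), and Myc from 251, 252 and 248 to 14.9, 18.6 and 19.7 (−2.94). No array at 21 h reached the lowest one at 0 h for any of these 4. Of 29 stem and progenitor regulators 8 were lower and 0 higher (median −0.19), the others being Hhex (−1.82), Bmi1 (−0.91), Tcf4 (−0.63) and Id1 (−0.45). Spi1, the myeloid factor PU.1 (0.54, adjusted p = 0.104), Runx1 (0.80) and Cd34 (−0.18) were not called. A second Myb probe set was near background at both times (2.07 and 2.53). The count of risers was 1 without array 0 h B and 2 without 21 h B.

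**Figure D2:**
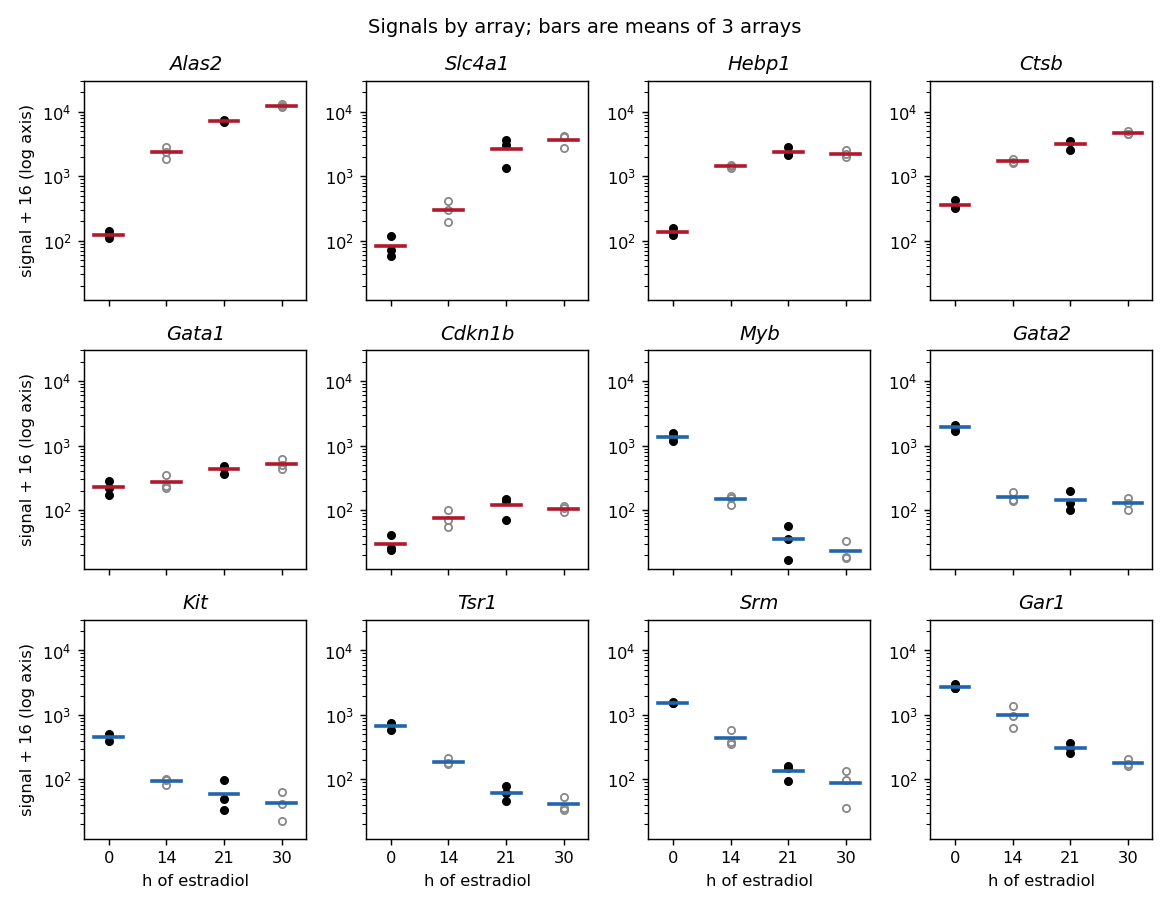
Signals plus 16 of single arrays (points, log axis) and means of 3 arrays (bars) for 12 genes at 0, 14, 21 and 30 h; filled points are the 0 h and 21 h arrays, red bars mark genes called higher and blue bars genes called lower at 21 h against 0 h. In all 12 genes the 21 h points lie apart from the 0 h points.

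Erythroid transcription factors were mixed, with 10 of 25 higher and 3 lower (median 0.18). Bach1, a repressor that heme releases from DNA, had the largest rise, from 57.6, 51.3 and 5.2 to 634, 727 and 794 (3.97). Its small Maf partner Mafk (1.96), the Gata-1 partner Zfpm1 or Fog-1 (1.70), Klf3 (1.30), Klf1 (1.22), Nfe2 (1.15), Foxo3 (1.04), Nfe2l2 (0.88) and Stat5b (1.30) rose as well. Gata1 signal was 201, 157 and 269 at 0 h and 341, 428 and 470.2 at 21 h (log2 change 1.02, SE 0.21, adjusted p = 0.00114). Whether signal from the fusion transcript is included was not tested, and its other probe set, of an uncertain kind, was not called (0.51, adjusted p = 0.0623). Lyl1, a factor related to Tal1, dropped from 3690.2, 3478 and 3348 to 134, 95.6 and 73.9 (−5.02), and another Lyl1 probe set gave −5.19. The other fallers were Cbfa2t3, a corepressor that works with Tal1 (−0.69), and Klf9 (−0.64). Tal1 itself (−0.20, adjusted p = 0.68), Lmo2 (0.16), Ldb1 (0.15) and Gfi1b (0.17) were not called.

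Other large falls were those of Mtm1, the lipid phosphatase myotubularin (4082 to 135), Lgals9, galectin 9 (987 to 29.7), Nefh, a neurofilament chain (777 to 36.8), and Tspan4, a tetraspanin (296 to 7.8). The second Mtm1 probe set stood at 40.3 and 64.2 and was not called (0.56, adjusted p = 0.0665), so which transcript fell is uncertain. Nab2, a corepressor of the Egr factors, fell by 3.88 (log2), together with Egr1 (−2.31) and Ier2 (−2.58). Btg2 (3.06), Junb (1.27), Klf6 (1.18), Dusp1 (0.998), Jun (0.74) and Fosb (0.61) rose, so of 26 immediate early genes 6 were higher and 5 lower (median 0.32).

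Genes of ribosome production were mostly lower. Of 51 measured genes for ribosomal RNA synthesis and ribosome assembly, 43 were lower and 0 higher, with a median of −1.43. Tsr1, needed to finish the small subunit, fell from 708, 564 and 728 to 31, 44.6 and 62.6 (log2 change −3.46, SE 0.24, adjusted p = 4.53e-09). Gar1, of the particles that modify ribosomal RNA, fell from 2586, 2606 and 3013 to 292, 245 and 348 (−3.22), and Rrs1, a large subunit assembly factor, from 744, 940.3 and 844 to 66.3, 105 and 102 (−3.01). Fibrillarin, coded by Fbl, a methylase of ribosomal RNA, fell from 3057 to 805 (−2.05), the helicase Ddx18 from 662 to 143 (−2.05), nucleolin (Ncl) by 1.60 and nucleophosmin (Npm1) by 1.29. Polr1a, the largest subunit of RNA polymerase I, was lower, and Polr1b (−0.28) was not called. Array 21 h A held the lowest 21 h signal in 32 of the 51. With each array of 0 h or 21 h left out in turn, 40 to 44 were called lower.

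The proteins of the ribosome itself gave other values. Of 30 cytosolic ribosomal protein genes 27 were not called, 1 was higher and 2 were lower, with a median of −0.06. Rpl6 had 8719.8, 8832 and 7551 at 0 h and 10737, 10193 and 10545 at 21 h (0.29, adjusted p = 0.0755), and Rplp0 was at −0.13. Rpl22 (−0.87) and Rpl13a (−0.58) were the 2 that fell and Rpl38 (0.78) the 1 that rose. The Rpl38 call did not survive leaving out any single array (adjusted p from 0.053 to 0.164), and that of Rpl13a without array 0 h A (adjusted p = 0.0623), without quantile normalization (0.0723) or with median scaling (0.179). Many ribosomal protein genes have processed pseudogenes that share their sequence.

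Lower calls were also the majority among the genes for nucleotide synthesis, RNA splicing and nuclear transport. Of 29 genes of nucleotide and one-carbon synthesis 18 were lower and 1 higher (median −1.001). Gart, a purine synthesis enzyme, fell from 1051, 1199 and 1209 to 123, 130.5 and 184 (−2.88), and Ctps, which makes CTP, from 629.7, 911 and 868 to 147, 234 and 235 (−1.88). Hprt, of purine salvage, fell from 1451 to 539 (−1.45), while Dck, a deoxynucleoside kinase, rose (0.69). Srm, the spermidine synthase, fell from 1503, 1501 and 1592 to 135, 80 and 144 (−3.56), and Sat1, which breaks polyamines down, rose from 72.9 to 246 (1.56). Odc1, the first enzyme of polyamine synthesis, was not called (−0.16).

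In the nuclear transport list 20 of 35 were lower and 2 higher (median −0.74). Ipo5, an importin of ribosomal proteins, fell from 470.1, 667 and 764 to 81.7, 77.1 and 84.7 (−2.67). Rcc1, the exchange factor that charges Ran with GTP, fell from 534 to 89.8 (−2.33), Ranbp1 by 2.24, Ran itself by 1.39 and importin beta, Kpnb1, by 2.02. A dimmer Kpnb1 probe set was called the other way (9.83 to 46.6, log2 change 1.29). Xpo7, an exportin abundant in erythroblasts, rose (0.71), as did Tnpo2 (0.69), and 1 was higher without array 0 h A or 21 h B. Among splicing and hnRNP genes 30 of 44 were lower and 0 higher (median −0.87), with Prpf8, the central spliceosome protein, from 1741 to 558 (−1.72) and Lsm7 from 1352 to 321 (−2.04). Array 21 h A held the lowest 21 h signal in 35 of the 44 splicing genes and 23 of the 35 transport genes. Without it 28 splicing genes were called lower and 1 higher, and 19 transport genes were called lower.

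Of 42 genes in the list of chaperones and protein folding 19 were lower and 2 higher (median −0.48). The mitochondrial chaperone Hspa9 fell from 2023, 3188 and 2783 to 408, 619 and 621 (−2.38), its partner Hspd1 by 2.26, the cytosolic Hsp90aa1 from 9452 to 3887 (−1.48) and Fkbp5 from 199 to 18.4 (−2.61). Of the genes that fold proteins in the endoplasmic reticulum, Hspa5 (−0.35), Hsp90b1 (−0.11), Calr (−0.47) and Canx (0.06) were not called. Ddit3, the stress factor CHOP and not a chaperone, was 1 of the 2 risers, from 242, 265 and 387 to 1883, 1531 and 1891 (2.50). The co-chaperone Dnajb2, among the large rises above, was not in the list. Translation factors were lower in 14 of 41 and higher in 1 (median −0.29). That 1 was Eif2ak1, the heme-regulated kinase that slows globin translation when heme is short, with 233, 245 and 354 at 0 h and 1061, 1121 and 1313 at 21 h (2.02). Gspt1, a release factor, fell from 1235 to 261 (−2.29), and the inhibitor Eif4ebp1 from 548 to 136 (−1.81). Of 19 aminoacyl tRNA synthetases 8 were lower and 1, Aars, was higher (1.07). The lower count was 4 without array 0 h B or 0 h C and 5 without 21 h A, and the higher count was 2 without 0 h B. Without 0 h C 2 translation factors were higher.

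**Figure D3:**
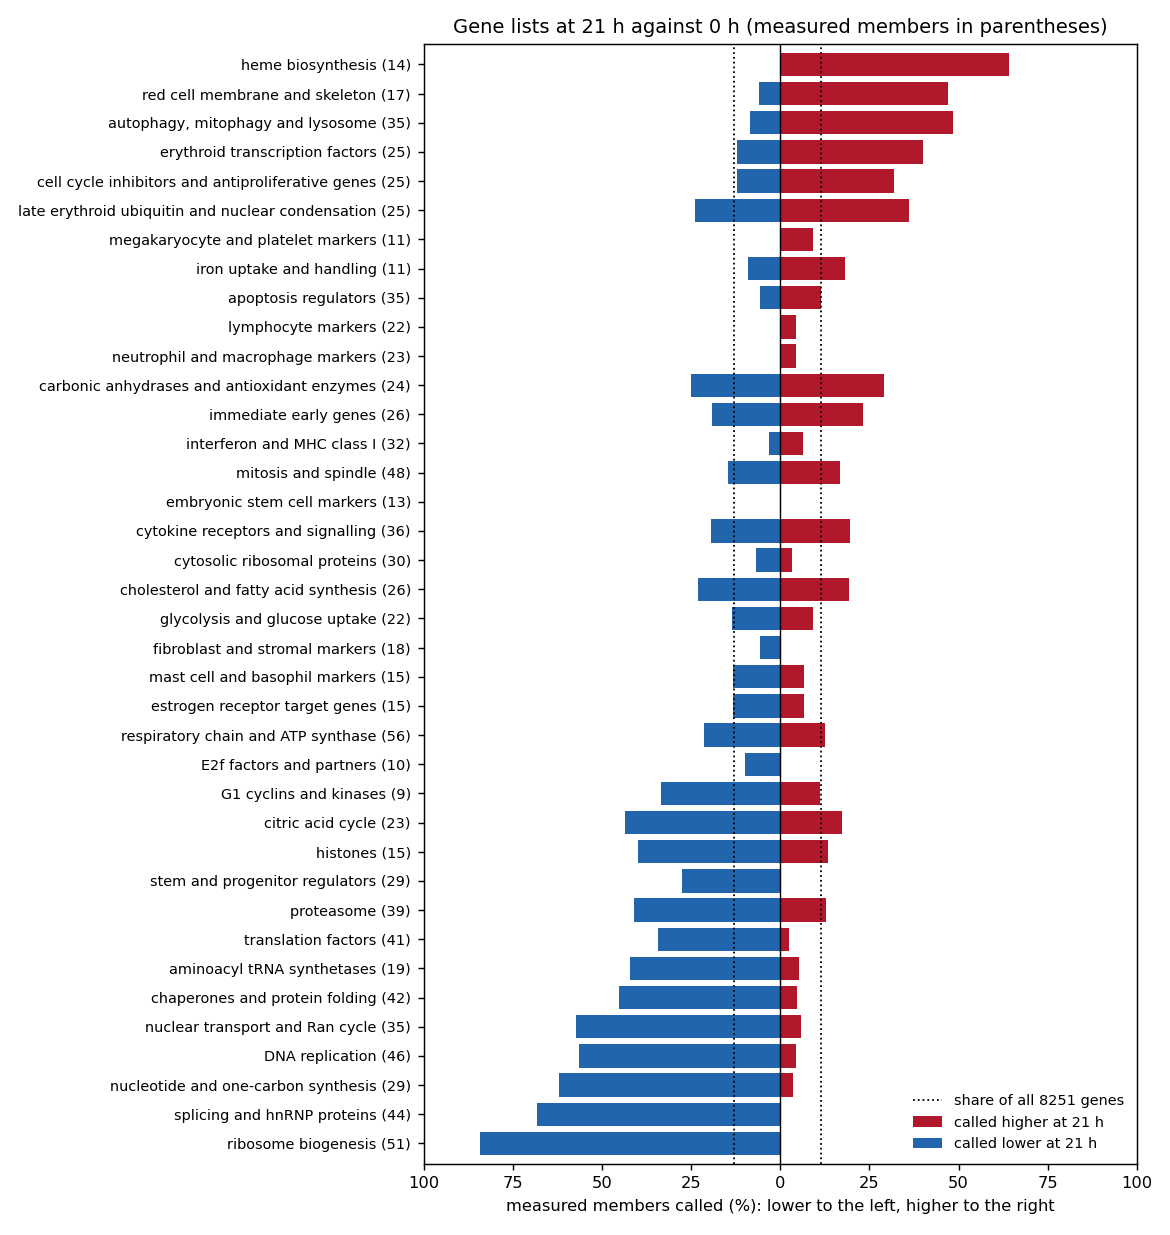
Percent of the measured members of each list called higher (red, to the right) and lower (blue, to the left) at 21 h against 0 h, for lists with at least 9 measured members, their number in parentheses. Dotted lines mark the shares among all 8251 genes, 11.4% higher and 13.1% lower; heme biosynthesis stands at the top with 64.3% higher and ribosome biogenesis at the bottom with 84.3% lower.

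Cell cycle genes gave other counts for DNA replication than for mitosis, a difference that was not tested. DNA replication genes were more often lower than higher at 21 h, with 26 of 46 lower and 2 higher (median −0.65). Pcna, the sliding clamp, fell from a mean of 1414 to 352 (−2.17). Mcm4, a subunit of the replicative helicase, had 999, 965 and 984 at 0 h and 222, 271 and 357 at 21 h (log2 change −1.77, SE 0.20, adjusted p = 1.32e-06). Cdt1, which loads that helicase, fell from 1013, 1178 and 1229 to 219.6, 361 and 297 (−1.94), and Uhrf1, which guides the methylation of newly made DNA, from 1336, 1624 and 1794 to 171, 258 and 366 (−2.62). All 6 subunits of the helicase were measured, and Mcm2 (−0.90), Mcm3 (−1.24), Mcm5 (−1.22) and Mcm7 (−1.25) were lower too, while Mcm6 (−0.13) was not called. Rrm2, the ribonucleotide reductase subunit made in S phase, which was counted with the nucleotide genes, fell from 1148, 1270.0 and 1283 to 270.5, 649.6 and 796 (−1.29). With array 21 h A left out it was not called (−0.88, adjusted p = 0.0546). Of the 46 replication genes, 35 had their lowest 21 h signal in array A, and 20 were called lower without it.

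Cdc6, which recruits the helicase loader to origins, went the other way, with 457, 529.8 and 497 at 0 h, a mean of 1667 at 14 h and 908, 1106 and 1079 at 21 h (log2 change 1.03, SE 0.11, adjusted p = 1.18e-06). It then dropped to 185 at 30 h (−2.29 against 21 h). Rnaseh2a was the other replication gene called higher (0.44), and the count of risers was 1 without array 0 h B, 0 h C, 21 h B or 21 h C. Of the 18 not called, Fen1 (0.27), Lig1 (−0.15) and Orc1 (−0.03) are examples. The 250 bases before the Cdc6 start (RefSeq, GRCm38.p6, chr11:98907901-98908150, plus strand) are shown as those of a replication gene that holds a motif searched for. Cdc6 was chosen after the motif matches were seen. Capitals mark an E2F motif (TTTCCCGC or TTTGGCGC on either strand), 138 bases before the start.
Cdc6: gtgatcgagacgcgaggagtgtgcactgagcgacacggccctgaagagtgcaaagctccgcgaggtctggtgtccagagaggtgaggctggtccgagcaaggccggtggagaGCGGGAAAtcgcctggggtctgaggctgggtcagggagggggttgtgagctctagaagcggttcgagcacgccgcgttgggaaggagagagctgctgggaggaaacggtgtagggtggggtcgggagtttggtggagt
The E2F motif stood in 13 of 41 replication genes with a 300-base window (31.7%), in 3.27% of all tested genes, in 5.87% of genes called lower and 3.06% of genes called higher, and in 1.56% of all windows. Of the E2f factors and partners, 1 of 10 was called, Tfdp1, which pairs with E2f proteins (1069.8 to 254, −2.06). Without array 21 h B 2 of them were lower, and without 0 h C or 21 h C 1 was higher.

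Genes of mitosis and the spindle were called at 21 h in shares near those of all genes. Of 48, 33 were not called, 8 were higher (16.7%, against 11.4% of all genes) and 7 lower (14.6%, against 13.1%), with a median of 0.13. Cenpa, the centromeric histone, had 266, 243 and 236 at 0 h and 565, 726 and 529 at 21 h (log2 change 1.27, SE 0.19, adjusted p = 3.88e-05). The cyclin Ccnb2 rose from 1723 to 3341 (0.74), the phosphatase Cdc25c from 129 to 274 (1.12) and Nusap1, a spindle protein, from 158 to 521 (1.64). Dimmer probe sets of Cdc25c (68.5 to 116.7, 0.754, adjusted p = 0.0583) and Nusap1 (29.4 to 43.2, 0.446, adjusted p = 0.478) were not called. Top2a, the topoisomerase that untangles chromosomes, had 384, 356 and 402 at 0 h and 364, 596 and 580.5 at 21 h (0.41, adjusted p = 0.253), with the arrays overlapping. Cdc20 (0.02), Bub1 (−0.32), Aurka (0.55) and Mki67 (0.35) were not called either. Cdk1, the kinase that starts mitosis, fell from 983, 926 and 933 to 368, 432 and 482 (−1.15, adjusted p = 0.00937), and the checkpoint protein Mad2l1 fell by 1.08. The Cdk1 call was lost with a constant of 1 (−1.17, adjusted p = 0.0583).

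Array 21 h A held the lowest of the 3 signals in 35 of the 48 mitosis genes. Without it 3 were called lower and 8 higher, and without array 21 h C 5 were called higher. Between 21 h and 30 h 619 probe sets (4.98%) were called, 232 higher (1.87%) and 387 lower (3.12%), or 6.14% of genes. The total was 402 without array 21 h B and 412 without 30 h C. At 30 h 39 of the 48 were lower than at 21 h and 1 higher, with a median of −1.58, against 3.9% lower and 2.24% higher among all genes in that comparison. Top2a stood at 68.8 at 30 h (−2.66, adjusted p = 7.43e-07), Cdk1 at 50.3 (−2.93), Kif20a, a kinesin of the late spindle, at 66.2 after 559, 794 and 689 at 21 h (−3.13), and Aspm, a spindle pole protein, at 9.3 (−2.61). Between 14 h and 21 h 0 of the 48 were higher and 1, Stmn1, was lower, with a median of −0.33 (1.16% higher and 1.66% lower among all genes). Replication genes were lower in 15 of 46 between 14 h and 21 h and in 26 of 46 between 21 h and 30 h, with medians of −0.65 and −0.98. The comparisons with 0 h, 14 h and 30 h share the 21 h arrays.

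The 250 bases before the Top2a start (RefSeq, GRCm38.p6, chr11:99024190-99024439, minus strand) are shown as those of a mitosis gene that holds a motif searched for. Top2a was chosen after the motif matches were seen. Capitals mark the cell cycle homology region (TTTGAA on either strand), 179 and 23 bases before the start, and 1 GATA motif between them, 32 bases before it.
Top2a: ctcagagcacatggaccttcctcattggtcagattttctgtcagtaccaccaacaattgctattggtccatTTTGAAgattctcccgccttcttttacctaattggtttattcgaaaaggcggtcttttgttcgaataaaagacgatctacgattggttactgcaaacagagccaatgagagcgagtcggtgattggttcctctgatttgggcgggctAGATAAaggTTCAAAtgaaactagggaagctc
TTTGAA stood in 25 of 40 mitosis genes with a window (62.5%), in 7 of 41 replication genes (17.1%), in 1017 of 6572 tested genes (15.5%) and in 17.9% of all windows. Among genes called higher and lower at 21 h the shares were 14.3% and 13.2%.

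**Figure D4:**
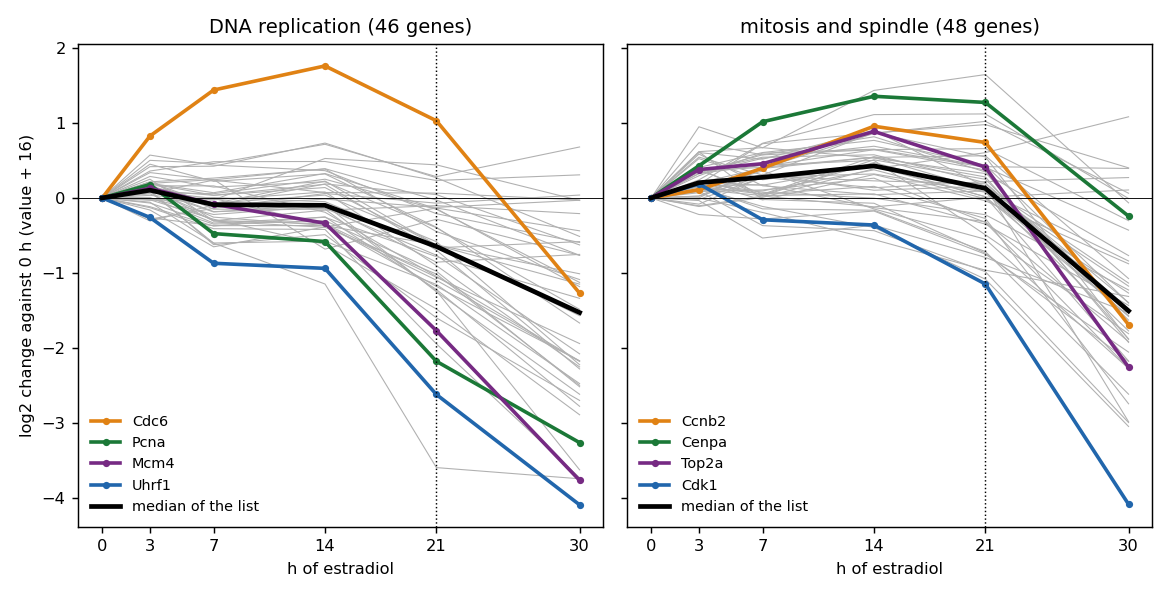
Log2 change against 0 h (value + 16) of 46 DNA replication genes (left) and 48 mitosis and spindle genes (right) at 3, 7, 14, 21 and 30 h of estradiol; grey lines are single genes, coloured lines 4 named genes and the black line the median. At 21 h (dotted line) the median stood at −0.65 for replication and 0.13 for mitosis, and at 30 h both were below −1.

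Inhibitors of the cell cycle were more often higher than lower, 8 against 3 of 25 (median 0.21). Cdkn1b, the kinase inhibitor p27, had 7.8, 9.9 and 24.8 at 0 h and 134, 123 and 54.9 at 21 h (log2 change 1.99, SE 0.38, adjusted p = 0.00058). Its other probe set, of an uncertain kind, went from a mean of 14.7 to 26.5 and was not called (0.455, adjusted p = 0.319). Cdkn2c, the inhibitor p18, rose from 229.7, 201 and 259.7 to 728, 849 and 933 (1.80). Mxd1, which opposes Myc on its target genes, rose from 3.6, 4.1 and 3.4 to 165, 124 and 164 (3.12), and Btg2, an antiproliferative gene, from 292 to 2641 (3.06). Gadd45a (1.72), Gadd45g (2.34), Mxd4 (0.95) and Cdkn2d (0.58) rose as well, Cdkn1a (0.004) was not called, and Mxd3, a family member made in S phase, fell (−1.73). The lower count was 1 without array 0 h B or 21 h C. Among the G1 cyclins, Ccnd2 fell from 710.1 to 269.5 (−1.29) and Ccnd3 rose from 925 to 2336 (1.23), with 14 h at 2078, while their kinase Cdk4 fell from 2029.6 to 963 (−1.22). Of 9 such genes 1 was higher and 3 lower, and 2 were higher without array 21 h A.

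Genes of autophagy and the lysosome were more often higher than lower. Of 35, 17 were higher and 3 lower, with a median of 0.49. Ctsb, the protease cathepsin B, rose from 312, 311 and 419 to 2499, 3423 and 3508 (log2 change 3.04, SE 0.14, adjusted p = 2.03e-11). A dimmer Ctsb probe set was called higher as well (1.36, adjusted p = 0.0297). Others, also dim, were not called (0.53 and −0.34, adjusted p = 0.331 and 0.584). Npc2, which carries cholesterol out of lysosomes, rose from 801, 673 and 846 to 6387, 5009 and 5378 (2.72), and Map1lc3b, the LC3 protein of autophagosome membranes, from 448, 248 and 266 to 1296, 1486 and 1468 (2.12). The LC3 relatives Gabarap (1.58), Gabarapl1 (0.84) and Gabarapl2 (1.20), the conjugation genes Atg12 (1.38) and Atg4b (1.13), the cargo receptor Sqstm1 (1.06) and the lysosomal membrane proteins Lamp1 (1.08) and Lamp2 (1.39) were also higher. The starter kinases Ulk1 (0.49) and Ulk2 (−0.03), and Atg5 (−0.20) and Atg7 (−0.26), were not called. The fallers were Ctse (−1.87), Gusb (−1.61) and Tfeb, a transcription factor of lysosomal genes (−0.62). The other 2 probe sets of Ctse, both of the uncertain kind, went from 29.5 to 63.1 and from 61.2 to 107 and were not called (adjusted p = 0.195 and 0.074), so the direction of Ctse is uncertain. At 21 h against 14 h, 6 of the 35 were higher and 0 lower, where 1.16% of all genes were higher. At 30 h against 21 h, 6 were higher and 1 lower, where 2.24% of all genes were higher and 3.9% lower. Mean Gabarap signals were 2183, 4169.5 and 7351 at 14, 21 and 30 h. The E-box stood in 8 of 27 genes of this list with a promoter window (29.6%), against 11.5% of all tested genes with one. It was also found in 33.3% of the heme genes, 23.9% of the ribosome biogenesis genes and 19.5% of the DNA replication genes. For the red cell membrane and mitosis lists the shares were 7.69% and 5%.

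In the list of ubiquitin and nuclear condensation genes, 9 of 25 were higher and 6 lower (median 0.37). The conjugating enzymes Ube2l6 (81.1 to 448, 2.30), Ube2h (1.97), Ube2b (1.41) and Ube2r2 (1.21) rose, and so did Riok3 (0.89) and lamin A (Lmna, 1393 to 5210.5, 1.73). Lamin B1, Lmnb1 (−1.50), the deacetylase Hdac2 (−1.38), the GTPase Rac1 (−1.59) and the histone methylase Kmt5a (−0.76) fell. Proteasome subunits were lower in 16 of 39 and higher in 5 (median −0.30), with Psma3 from 2474 to 820.5 (−1.76) and Psmd7 from 1536 to 498 (−1.75). Array 21 h A held the lowest 21 h signal in 28 of the 39, and 14 were called lower without it. The 5 higher were 2 without array 21 h C and 3 without 21 h B or 0 h A. Among histone genes and their chaperones 2 of 15 were higher and 6 lower. H2az2 rose from 569 to 1393 (1.21) and H1f2 by 2.10, while Macroh2a1 (−1.98) and the chaperones Nasp (−1.60) and Asf1b (−1.44) fell. The higher count was 1 without array 0 h A or 21 h A. Signals of Lmnb1 overlapped between the 2 times.

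**Figure D5:**
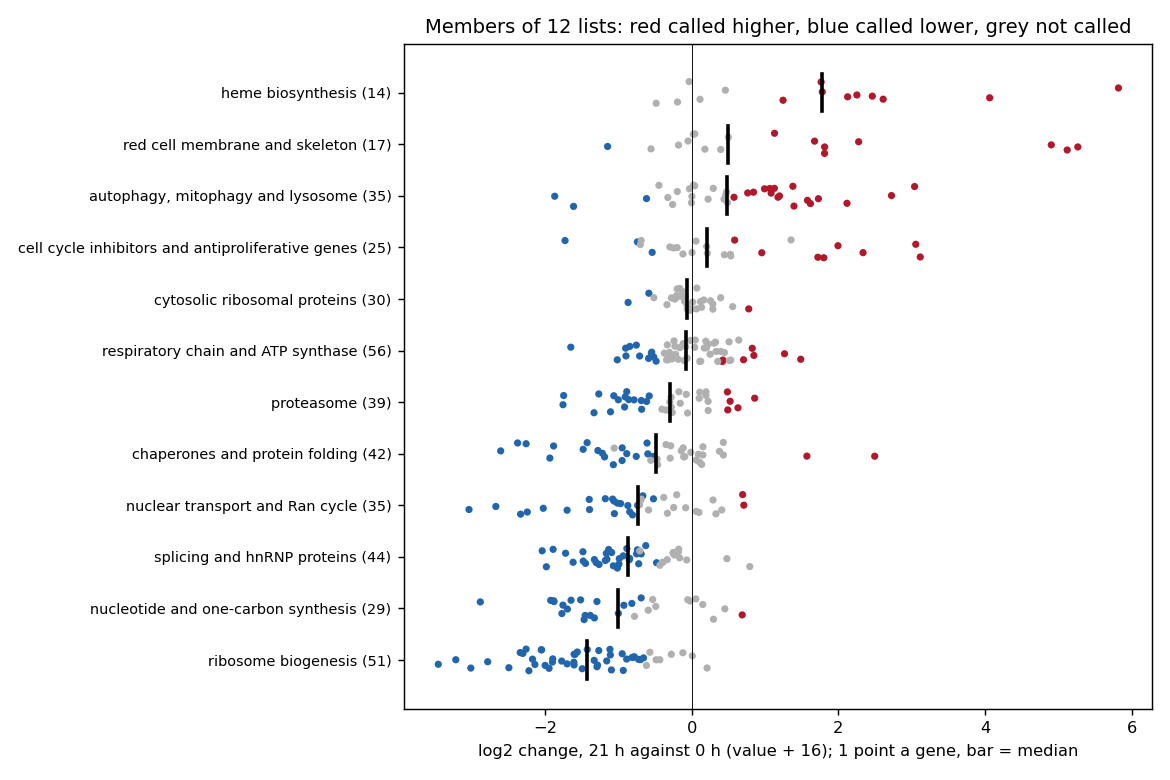
Log2 change at 21 h against 0 h (value + 16, horizontal axis) of each measured member of 12 lists, 1 point a gene, with black bars at the medians; red points were called higher, blue ones lower and grey ones not called. Ribosome biogenesis has its median at −1.43 and cytosolic ribosomal proteins at −0.06.

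Mitochondrial genes varied within their pathways. Of 23 genes of the citric acid cycle 10 were lower and 4 higher (median −0.54). Idh2, the mitochondrial isocitrate dehydrogenase that uses NADP, fell from 170.1, 169.8 and 271 to 19.7, 12.4 and 11.6 (−2.79), and Suclg2, the GTP-forming subunit of succinyl-CoA ligase, from 488, 772 and 819.7 to 157, 166 and 163 (−1.92). Sucla2, the ATP-forming counterpart of Suclg2, rose (0.61), as did citrate synthase Cs (0.56), Dlst (0.81) and Sdhd (0.82). The other subunits of succinate dehydrogenase went down or were not called, Sdhb (−0.59) and Sdhc (−0.55) lower and Sdha (−0.37) not called. Of 56 respiratory chain and ATP synthase genes 7 were higher and 12 lower (median −0.07), among them Ndufa6 (382 to 1107, 1.49), Ndufb10 (1.26) and Atp5a1 (3539 to 2018, −1.02). Array 21 h A held the lowest 21 h signal in 15 of the 23 citric acid cycle genes and 34 of the 56 respiratory genes, and without it 9 and 8 were called lower.

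Of 22 glycolysis genes 2 were higher and 3 lower (median −0.05). Pfkm, the muscle form of phosphofructokinase, rose from 185, 161 and 223 to 1042, 731 and 833 (2.14), and Pklr, the pyruvate kinase of red cells and liver, from 422 to 704 (0.71). Pgk1 fell from 5779, 4677 and 5642 to 4010.4, 2634 and 1004 (−1.42) and Pgam1 from 1680.5, 1507 and 2409 to 1664, 842 and 199 (−1.54, adjusted p = 0.037). For both the 21 h arrays were far apart, highest in A and lowest in C. The Pgam1 arrays overlapped between the 2 times, and its call ended when any 1 of 0 h A, B or C or 21 h B or C was left out (adjusted p from 0.0501 to 0.247, the last without 21 h C, where the value was −0.74). The Pklr call was lost without 21 h A (0.45, adjusted p = 0.0692). The lower count was 1 without 0 h B, 0 h C or 21 h C, and without 21 h A it was 5, with 1 higher. Lipid synthesis genes gave 5 higher and 6 lower of 26, with Fdft1 (1.23) and Ebp (1.24) of sterol synthesis up and the fatty acid genes Fasn (−1.61), Me1 (−1.72) and Elovl6 (−1.76) down. The 5 higher became 3 without array 0 h A, 0 h B or 21 h C.

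Among cytokine receptors and their signalling genes 7 of 36 were higher and 7 lower (median 0.07). Besides Csf2rb and Csf2rb2, Stat5b (1.30), Gab1 (1.15), Pim1 (0.98), Cish (0.92) and Jak1 (0.88) rose. Epor, the erythropoietin receptor, had 583, 569 and 602 at 0 h and 632, 723 and 678 at 21 h (0.22, adjusted p = 0.206), and its kinase Jak2 (0.28) was not called. Ptpn6, a phosphatase that shuts the receptor down, fell from 195 to 26.0 (−2.27), and Igf1r (−1.81), Il4ra (−1.94), Grb2 (−1.37) and Socs2 (−1.32) fell too. Of 35 apoptosis regulators 4 were higher and 2 lower (median 0.15). Bcl2l1, which codes for the survival protein Bcl-xL, rose from 294, 275 and 246 to 790.5, 791 and 683 (log2 change 1.45, SE 0.19, adjusted p = 8.97e-06), and stood at 1371 at 30 h. Apaf1 (0.89), Bad (0.79) and Bnip2 (1.13) rose, Bid (−2.15) and Cycs, cytochrome c (−0.84), fell, and Bcl2 (0.27) and Mcl1 (−0.40) were not called. Second probe sets of Bad (0.145, adjusted p = 0.77) and Bnip2 (−0.013, adjusted p = 0.983), both of the uncertain kind, were not called. That of Bcl2l1 was near background at both times (5.53 and 6.3) and was not called. The lower count was 1 without array 0 h C, 4 with the dimmest probe sets left out or only the 6 arrays fitted, and 5 with array quality weights. Of 15 estrogen receptor target genes 1, Ctsd (0.99), was higher and 2, Myb and Cited2 (−1.66), were lower, and 2 were higher without array 0 h A.

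Markers of other cell types were few among the calls. In the megakaryocyte list 1 of 11 was higher, Gp9, from 30.9, 25.4 and 36 to 94.7, 89 and 114 (1.34), with Pf4 (0.17) and Vwf (−0.22) not called. The summed signal of this list was 275 to 349.5 at 0 h and 335.2 to 415.1 at 21 h. Mast cell markers gave 1 higher (Cma1, 1.11) and 2 lower (Mcpt1, −1.35, and Cpa3, −0.92) of 15, neutrophil and macrophage markers 1 higher (Camp, 0.94) of 23, lymphocyte markers 1 higher (Ms4a1, 1.01) of 22, fibroblast markers 1 lower (Dcn, −0.93) of 18 and embryonic stem cell markers 0 of 13. The summed signals of these 5 lists overlapped between the 2 times. Mean signals below 16 at both times were found for 4 megakaryocyte, 7 mast cell, 8 neutrophil, 8 lymphocyte, 4 fibroblast and 5 embryonic stem cell markers. The part of other cell types in the results was not tested. Leaving out array 21 h A ended the calls of Camp and Ms4a1 (adjusted p = 0.0736 and 0.0985). Calls were also lost for Ms4a1 without 0 h C (0.135), for Camp without 0 h B (0.0739), for Dcn without 0 h A (0.0591), and for Cma1 without 0 h A, 0 h B, 21 h B or 21 h C (0.0535 to 0.101). Other probe sets of Cma1 (−0.149 and −0.079), Mcpt1 (−0.123), Cpa3 (−0.659) and Ms4a1 (0.355) were not called (adjusted p from 0.0807 to 0.822). Red cell genes had higher sums at 21 h than at 0 h in every array, 31815 to 32547 against 5442 to 7163 for heme genes and 29896 to 34021 against 6793 to 8899 for globins. Single left-out arrays also added calls: 1 more megakaryocyte gene and 1 fibroblast gene were higher without 21 h C, 1 embryonic stem cell gene was higher without 0 h B, and 1 neutrophil gene was lower without 0 h A or 21 h C. Interferon and class I genes were called in 3 of 32.

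Some genes crossed from background to clear signal. By a rule chosen after the values were seen, a mean below 16 at 1 time and above 100 at the other, 7 genes came up and 11 went down. Besides Btn1a1, Mxd1 and Cdkn1b, those that came up were Ctsf, cathepsin F, Rragd, a GTPase that signals amino acids to mTORC1, Tulp2 and Specc1. The other probe set of Cdkn1b did not come up by this rule (means of 14.7 and 26.5). Rragd had 14.5, 9.4 and 21.9 at 0 h and 167, 243 and 203 at 21 h, and Ctsf 6.4, 13.7 and 23.2 against 295, 229.8 and 112. Those that went down were Tspan4, Ces2g, Idh2, Smyd5, Ergic1, Kat2a, Bsn, Pprc1, a coactivator of mitochondrial gene expression, and the ribosome assembly genes Nolc1, Rrp12 and Wdr46. Nolc1 had 171, 110.3 and 109 at 0 h and 4.1, 7.5 and 15.5 at 21 h. Detection calls were not used here, so these are levels and not calls of presence.

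Between 14 h and 21 h 288 probe sets (2.32%) were called, 117 higher (0.942%) and 171 lower (1.38%), and in genes the share called was 2.82%. Scaling to a common median turned the share of higher calls from 40.6% to 59.3%. With only the 6 arrays of these 2 times in the fit the share was 51.4%. The call count was 119 without array 14 h C, 165 without 14 h B and 152 without 21 h A. The largest rise was that of Slc4a1, from 286 at 14 h (3.01, adjusted p = 0.000165). Mt2, a metallothionein, had signals of 11328, 11397 and 11876 before estradiol and 5967, 9331 and 8090.1 after 21 h, with means of 2586 and 17134 at the neighbouring times. It was therefore lower than at 0 h (−0.80, adjusted p = 0.0133) and higher than at 14 h (1.53, adjusted p = 0.000764), and the first of these calls ended when array 0 h C or 21 h A was left out (adjusted p = 0.0656 and 0.0944), without quantile normalization (0.0808) and with median scaling (0.185). Pold2, of the replicative polymerase delta, fell from 433 to 62.7 (−2.44) and Cdca7, a gene that Myc induces, from 462 to 102 (−2.01).

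By the fit over all 18 arrays, 6 genes stood beyond both 14 h and 30 h at 21 h, with both tests called. Hagh, a glyoxalase of methylglyoxal removal, was highest at 21 h, with 889.8, 888 and 937 against means of 127, 571 and 598 at 0, 14 and 30 h. Septin9, a cytoskeletal GTPase, was lowest at 21 h, with 91.1, 69.1 and 28.7 against 556, 173 and 136. Ppp1r14b, an inhibitor of a phosphatase, stood at 261, 402 and 418 against 1079, 754 and 640.4. Snrp1c-ps2, named as a pseudogene related to a spliceosome gene, stood at 78.5, 71.6 and 104 against 383, 373 and 330.4. Calls of Septin9 did not hold in fits of only the 6 arrays compared (adjusted p = 0.152 against 14 h and 0.143 against 30 h). Ppp1r14b was not called against 14 h in that fit (0.135), nor against 30 h with median scaling (adjusted p = 0.066). The remaining 2 were dim, Ros1 with means of 8.27, 4.53, 20.4 and 6.47 at 0, 14, 21 and 30 h and Ecm1 with 9.07, 3.17, 15.5 and 4.1. The other 2 probe sets of Ros1 were dimmer, were not called and had their lowest mean of these times at 21 h (1.2 and 1.87). Calls of Ros1 and Ecm1 were lost without several single arrays, with adjusted p up to 0.107 and 0.171 against 14 h and up to 0.176 and 0.172 against 30 h. Those of Hagh were lost without array 21 h A (adjusted p = 0.0635 against 14 h and 0.0543 against 30 h), without 14 h A (0.0536 against 14 h), and against 30 h without 21 h C, 30 h A or 30 h C (0.0583 to 0.0959). Median scaling also ended both calls of Hagh (adjusted p = 0.0608 against 14 h and 0.0699 against 30 h). With only the 6 arrays compared, Hagh was not called against 14 h (0.111).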

How the data were processed

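The members and gene lists were chosen with earlier results of these data known. RNA of G1E-ER4 cells was hybridised to MG-U74Av2 arrays, 3 biological replicates at each of 6 times. The deposited values are signal intensities on a linear scale, 1 per probe set, with a trimmed mean of 150.1 on every array; how the authors summarised the probes is not given in the sources used here. Of 12488 probe sets, 66 controls were left out. Values plus 16 were put on the log2 scale, quantile normalized and fitted with limma 3.58.1 (R 4.3.3) over all 18 arrays, with 12 residual degrees of freedom and an intensity trend. P-values were adjusted by Benjamini-Hochberg over 12422 probe sets. An exact permutation test of 3 arrays against 3 cannot go below 0.1, so none was used. The fit was tested on simulated data.

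Symbols came from the platform annotation: 10833 probe sets had 1 symbol, 396 several and 1193 none, and the latter 2 kinds were left unnamed. Where a gene had several probe sets, the one brightest on average (log2) stood for it. Genes were named by rule: the 15 largest rises and 15 largest falls among calls without overlap, 6 each way for the neighbouring times, the 5 members of each of 40 lists with the smallest p, genes of known role, and genes with an extreme at 21 h. Other list members named were chosen after their values were seen. Promoters are RefSeq windows of 250 bases before to 50 after the start (GRCm38.p6). They matched 6572 of 8251 genes (79.7%), just under the share needed for a check over that set, so those motif shares are descriptions of the matched genes alone. A window with several motifs counts under each. The number of arrays limits the precision. Alternatives were other normalizations, constants, filters and fits, and each array left out in turn.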

Additional observations from a re-analysis of the deposited data

How the results depend on the processing

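At 21 h against 0 h the count of 2571 called probe sets stayed within 1.5 times under every alternative run: 2174 to 2339 with 1 array left out, and 2236 to 2693 otherwise. Higher calls were 1003 to 1070 with 1 array left out and lower calls 1171 to 1269. At 21 h against 14 h the 288 calls became 172 with scaling to a common median, 180 with no intensity trend and 37 with only the 6 arrays compared, and 119 to 360 with 1 array left out. The 117 higher calls became 72 with no trend and 19 with 6 arrays (47 to 121 with 1 array left out), and the 171 lower calls became 70 with median scaling, 108 with no trend and 18 with 6 arrays (72 to 239). At 30 h against 21 h the 619 calls became 290 with 6 arrays (402 to 574 with 1 array left out), the 232 higher calls 148 with median scaling and 130 with 6 arrays (144 to 185), and the 387 lower calls 160 with 6 arrays (243 to 389). The fits with 6 arrays have fewer samples; otherwise the cause was not tested. No named gene reversed its direction while called. Of the values of named genes called at 21 h against 0 h, 2687 kept and 54 lost their call, and 37 values of genes not called gained one. Of 1840 list values, 129 moved. Among these, lower calls were 4 of the aminoacyl tRNA synthetases with median scaling and 1 of the cell cycle inhibitors with 6 arrays, and higher calls were 2 of the proteasome and 3 of the lipid synthesis genes with 6 arrays.

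The labels do not say that the replicate letters pair the arrays. Deviations of same-letter arrays (A, B and C) correlated at 0.003, 0.010 and −0.048 for 0 h and 21 h, at 0.205, 0.104 and 0.034 for 14 h and 21 h, and at 0.057, 0.087 and 0.012 for 21 h and 30 h. For the 21 h arrays the highest correlation with another letter at 14 h was −0.074 for A, 0.052 for B and 0.071 for C. In none of these comparisons were all 3 same-letter values over 0.1, so the letters were not taken as pairs. At every time, array A had the lowest ratio of 3' to 5' actin signal of the 3 arrays. What same-letter arrays shared is not given by the labels and was not tested. With the replicate block 2638 probe sets were called at 21 h against 0 h, 354 at 21 h against 14 h and 676 at 30 h against 21 h. Signals below 16 made up 26.9% to 33.9% of each 21 h array, and changes there are the least certain.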
